A study of Mus musculus with 3 samples.

Results

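The cells described here are SST-lineage cells of the mouse neocortex in which at least 2 of the genes Amelx, Irs4, Hspb3, Gpx3 and Slc17a8 were counted together. They were chosen on these counts: cells with over 700 detected genes and under 10% mitochondrial UMIs (unique molecular identifiers, each marking 1 captured mRNA molecule), a UMI of at least 2 of the 5 genes, and 0 UMIs of Nos1, Pdyn and Myh8. In all, 140 of 9433 kept cells met the rule: 8 in the E16.5 library, 29 in that of P1 and 103 in that of P5. They were compared, within each library, with 3686, 1923 and 1880 reference cells that held 0 UMIs of Nos1 and of all 5 genes.

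The cells came from SstCre/+;RCEfl/+ mice, in which Cre made under the Sst promoter switches on the RCE reporter, so that a cell that expressed Sst at any time stays GFP+. GFP+ and DAPI-negative cells were sorted from dissected neocortex and captured with 10x Genomics chemistry, in 1 library per stage. Tissue of 6 animals was pooled for E16.5, and of 3 animals for each of the later stages. All 3 stages carried the same alleles, and no treatment is named. Because each stage is 1 pool, stage and library cannot be told apart, the cells are not replicates, and every interval below covers counting error only.

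SST+ neurons arise in the medial ganglionic eminence and inhibit their targets with GABA. They are divided into Martinotti cells (MCs), whose axons climb to layer 1, non-Martinotti cells (nMCs), which innervate other layers, and NOS1-expressing long-range projection (LRP) neurons. Of the genes that chose the cells, Amelx encodes the enamel protein amelogenin, Irs4 an adaptor of insulin and growth factor receptors, Hspb3 a small heat shock protein, Gpx3 a secreted glutathione peroxidase and Slc17a8 the vesicular glutamate transporter VGLUT3.

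The 3 libraries held 4478, 4440 and 3406 cell barcodes and between 13429055 and 25638779 UMIs. They shared at most 6 barcodes in a pair, and 0 of the chosen cells carried a shared barcode. The chosen cells were deeper than the reference cells, with a median of 6479.5 against 5466.5 UMIs (E16.5), 11858 against 3063 (P1) and 6233 against 3755 (P5). At P1, 14 of 29 chosen cells were among the 5% deepest kept cells, and at P5 17 of 103 were. No doublet caller was run, so the ratios are also given against reference cells paired with the chosen cells by depth. The part of depth in the other results was not tested.

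The defining genes of inhibitory neurons of the SST lineage were present in these cells. A UMI of Gad1, Gad2 or Slc32a1, the enzymes and the transporter of GABA release, was found in 139 of 140 chosen cells, and one of Sst or Lhx6, a transcription factor of cells from the medial ganglionic eminence, in 137. Slc17a6 and Slc17a7, the transporters of excitatory neurons, had 0 UMIs in all 140 cells, and Neurod2 or Neurod6 was seen in 1. Of 9 markers of interneurons from the caudal ganglionic eminence, Vip, Prox1, Lamp5, Sncg, Htr3a and Adarb2 were at 0 at P1 and P5. The other 3 passed the filter used below, with Cck called higher, Reln lower and Npas1 at log2 ratios of 1.48 and 0.55. Of 10 excitatory markers, 7 were at 0 in the chosen cells of P1 and P5, and their summed level over the 3 stages ran from 0 to 11.9 CPM (CPM being UMIs per 1000000 UMIs of the group) in chosen cells and from 31.2 to 50.7 CPM in reference cells. Markers of microglia and blood had 0 UMIs in the chosen cells of all 3 libraries. Reference cells had only 0.401 to 3.45 CPM of either list, so a count of 0 says little. The summed level of the oligodendrocyte lineage list was 32.65 CPM at P1 and 32.7 CPM at P5, against 40.8 and 52.9 CPM in reference cells. The 3 genes of the working name did not mark all of these cells: Amelx was seen in 35, Irs4 in 71 and Gpx3 in 97 of 140, and all 3 together in 4.

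The chosen cells made up 0.202% of kept cells in the E16.5 library (Clopper-Pearson 95% interval from 0.0874% up to 0.399%). The share was 1.16% at P1, between 0.778% and 1.66%, and 3.46% at P5, between 2.83% and 4.18%. After each cell was thinned to 2000 UMIs, 3, 8 and 22 cells still met the rule, or 0.0830%, 0.438% and 0.901% of the 3615, 1828 and 2443 cells deep enough. The order of the stages was the same at both depths. After thinning, the intervals of neighbouring stages overlapped, at 0.0171% to 0.242%, 0.189% to 0.861% and 0.565% to 1.36%. These are shares of sorted cells and not of the cortex, and tissue of P5 was digested with trypsin in addition to pronase.

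Amelx was the gene of the embryonic cells. It lies at chrX:169176114-169187200 on the minus strand (GRCm38), inside Arhgap6, which runs on the plus strand. All 8 chosen cells of E16.5 had it, with 30 UMIs in all, against 10 of 29 cells with 34 UMIs at P1 and 17 of 103 cells with 38 UMIs at P5. Over all kept cells it was seen in 146, 23 and 20 cells of the 3 libraries in that order. The E16.5 cells were thus chosen through Amelx, with Hspb3 in 5, Irs4 in 2 and Gpx3 in 1 of them.

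After birth, Gpx3 and Irs4 were the usual pair. Irs4 was counted in 16 of 29 chosen cells at P1 and 53 of 103 at P5, with 56.4 and 99.7 CPM. Gpx3 was found in 20 and 76 cells, with 109.8 and 193 CPM. Both together, without the other 3, gave 7 cells at P1 and 28 at P5. Gpx3 was the least selective of the 5, since 14.9% of all kept P5 cells had a UMI of it, against 2.89% for Irs4 and 3.12% for Hspb3. Slc17a8 was counted in 12 and 37 chosen cells, and Hspb3 in 9 and 44. None of the 88 excitatory cells (2 or more of Neurod2, Neurod6, Slc17a7 and Tbr1, and 0 Lhx6 UMIs) had Amelx, Irs4 or Gpx3, while 2 had Hspb3 and 1 had Slc17a8, at median depths of 11905, 6045.5 and 4954 UMIs over the 3 stages. Most chosen cells stood just inside the rule: 114 held 2 of the genes, 22 held 3 and 4 held 4, and 624 other cells held only 1.

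**Figure D1:**
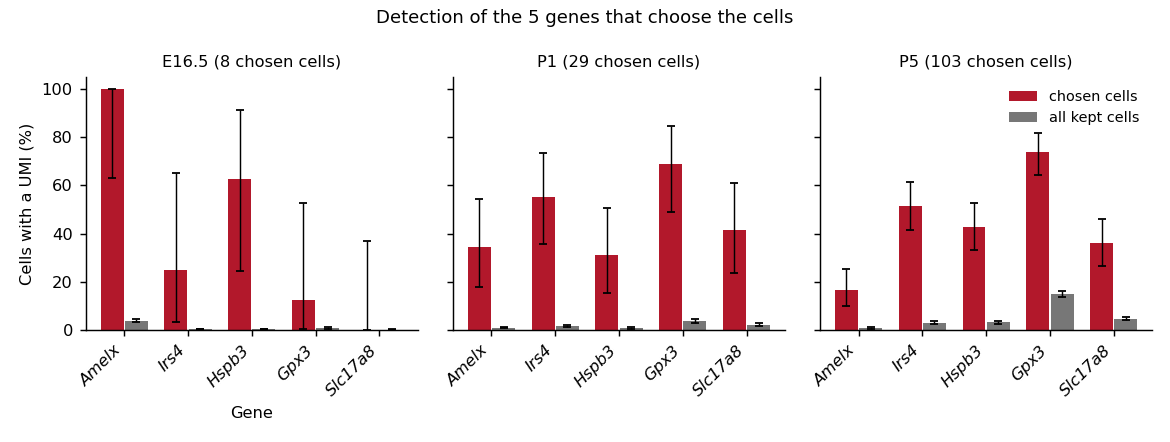
Share of cells (%) with at least 1 UMI of each of the 5 genes that chose the cells, in the chosen cells (red) and in all kept cells (grey) of each library; bars show the exact 95% interval. Amelx was in all 8 chosen cells at E16.5 and in 17 of 103 at P5, while Gpx3 was in 76 of 103 at P5.

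Because only 8 cells were chosen at E16.5, the other genes were read first at P1 and P5. Among 5736 genes whose mean level in both groups would give at least 10 UMIs in each, 53 (0.924%) were at least 2-fold higher in chosen than in reference cells at both stages, and 59 (1.03%) were at least 2-fold lower. The median gene had a log2 ratio of -0.02 at P1 and 0.00 at P5. All ratios are log2 of CPM + 1, and no test was made, since the cells were chosen on counts of the same libraries. With the planned filter, on the level pooled over both groups, 28 of the 53 higher and all 59 lower genes were also called. The other higher genes passed only with the mean level, through their level in the chosen cells. Htr1a, Htr1b, Bcl6, Plagl1, Ldb2, Sorcs3 and Npr3 were among these. Against depth-paired reference cells, 56 genes (1.01%) were higher and 45 (0.815%) lower, and 31 of the 53 and 31 of the 59 were among them. The reference cells can include LRP neurons in which Nos1 was not captured, which were not counted, so the chosen cells were also set against 43 P1 and 427 P5 interneurons with a UMI of Myh8 or Pdyn. There, 81 genes (1.44%) were higher and 66 (1.17%) lower, with 39 of the 53 and 35 of the 59 among them. In all 3 comparisons, 27 genes were higher and 24 lower. The 3 comparisons share the chosen cells, and both smaller references are drawn from the same reference cells, so their agreement is partly built in.

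**Figure D2:**
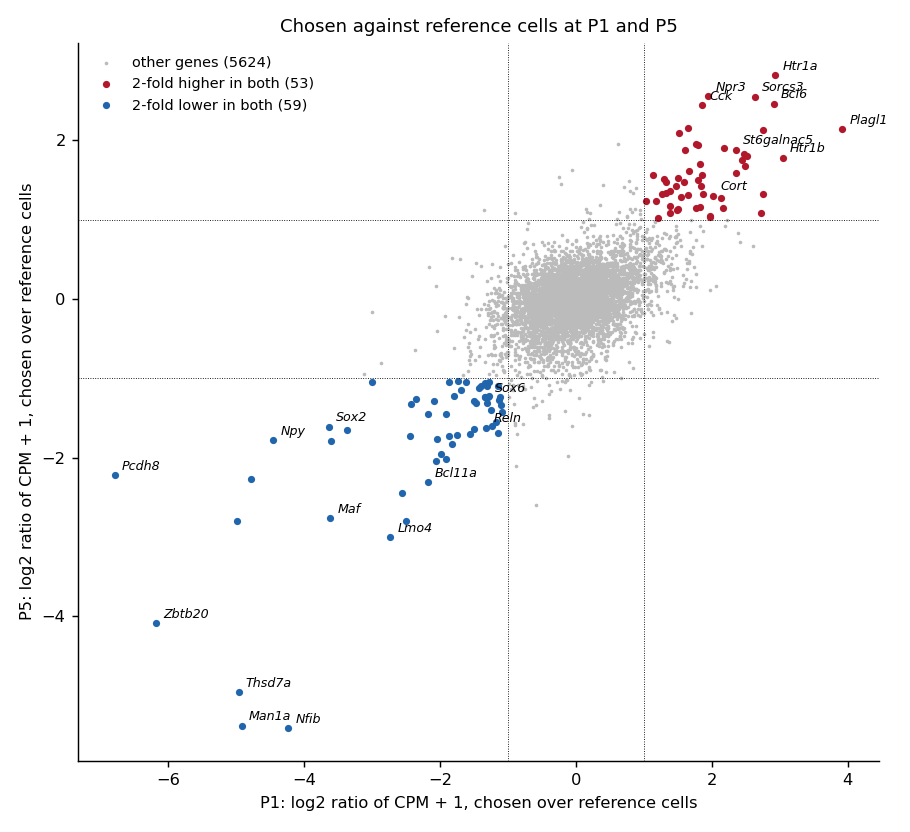
Log2 ratio of CPM + 1 in chosen over reference cells at P1 (x axis) and P5 (y axis), 1 point per gene; red and blue points are the 53 and 59 genes at least 2-fold higher or lower at both stages, and dotted lines mark 2-fold. Htr1a, Bcl6 and Sorcs3 lie at the upper right, and Zbtb20, Thsd7a, Maf and Npy at the lower left.

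Htr1a and Htr1b were among the higher genes, while the serotonin receptor genes Htr1d and Htr3a had 0 UMIs in the chosen cells of P1 and P5. Of 5 genes past the filter in a list of 38 receptors, Htr1a alone was called, beside 0.924% higher over all genes. Htr1a passed the filter only through its level in the chosen cells, so this count is partly set by the filter. Htr1a, an inhibitory serotonin receptor, had 28 UMIs in 17 of 29 chosen cells at P1 and 47 UMIs in 29 of 103 at P5. Its level was 83.1 CPM (exact Poisson 95% interval 55.2 to 120 CPM) and 69.9 CPM (51.4 to 93.0 CPM), against 10.0 and 9.07 CPM in reference cells, a log2 ratio of 2.93 and 2.82. Against depth-paired cells the Htr1a ratio was 2.41 and 2.63, and Htr1a was at 0 and 7.06 CPM in the Myh8 cells. It was at 5.30 and 9.07 CPM in Pdyn cells. Cells with a UMI of both Cbln4 and Etv1 had 18.7 and 28.1 CPM, from 4 and 2 UMIs. Htr1b, a related receptor, was at 80.1 and 64.0 CPM against 8.84 and 17.9 CPM, and was counted in 16 and 33 chosen cells. Both receptors were among the genes called higher at both stages, so that direction is part of the call.

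The transcriptional regulators among these genes were led by Bcl6, a repressor with a zinc finger domain. Bcl6 had 22 UMIs in 14 of 29 cells at P1 and 40 UMIs in 35 of 103 cells at P5, or 65.3 CPM (40.9 to 98.9 CPM) and 59.5 CPM (42.5 to 81.0 CPM). Reference cells had 7.80 and 9.97 CPM of Bcl6, Myh8 cells 9.95 and 7.06 CPM, and Pdyn cells 0 and 1.60 CPM. Plagl1, an imprinted zinc finger gene, was at 119 and 83.3 CPM against 6.89 and 18.2 CPM. Ldb2, a cofactor of LIM domain proteins, was at 71.2 and 53.6 CPM against 9.76 and 11.5 CPM. Fosl2 and Maml3, a coactivator of Notch, had log2 ratios of 2.45 and 1.75, and of 1.82 and 1.70. For Maml3 the ratio to depth-paired cells at P1 was 0.90, under 2-fold.

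Of the peptide genes, Cck, Cort and Tac1 were higher and Npy lower. Cck was at 139.5 CPM (102.5 to 185.5 CPM) at P1 and 250 CPM (214 to 291 CPM) at P5 against 37.6 and 45.2 CPM, yet it was seen in only 13 of 29 and 37 of 103 cells. Cort, the paralog of Sst, was at 519 and 1013 CPM against 127 and 412 CPM, in 26 and 81 cells. Its ratio to depth-paired cells was 1.95 at P1 and 0.76 at P5, and Myh8 cells had 556 CPM of Cort at P5. Tac1, the substance P gene, sat in few cells: 37 UMIs came from 4 of 29 cells and 92 UMIs from 19 of 103. Among cells with 3 or more of the rule genes, Tac1 was at 0 in the 7 cells of P1, while at P5 it had 56 UMIs in 5 of 19 cells, 23 of them from 1 cell. Its ratio to depth-paired cells was 0.40 at P1 and 1.91 at P5. Sst itself was at 1965 and 1718 CPM against 1549 and 1375 CPM, with ratios of 0.34 and 0.32, and 0.41 and 0.01 to depth-paired cells.

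Npy, a peptide of LRP neurons and of part of the interneurons, had 24 UMIs in 15 of 29 chosen cells at P1 and 201 UMIs in 42 of 103 at P5. Its level was 71.2 and 299 CPM against 1576 and 1028 CPM in reference cells, 443 and 537 CPM in Myh8 cells and 1372 and 546.5 CPM in Pdyn cells. The Npy ratio was -4.45 and -1.78, and -3.51 and -1.38 to depth-paired cells. Npy was lower in the chosen cells than in each of these groups at both stages, although by less than 2-fold against Myh8 or Pdyn cells together at P5 (-0.89).

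Other genes of the higher group encode enzymes, receptors and adhesion or guidance proteins. St6galnac5, a sialyltransferase, was the most abundant of the genes named here that were higher in all 3 comparisons, with 962 and 863 CPM against 188 and 234 CPM, and it was counted in 29 of 29 and 99 of 103 chosen cells. Npr3, the clearance receptor of natriuretic peptides, was at 62.3 and 92.2 CPM against 15.3 and 14.8 CPM. Sorcs3, a sorting receptor, was at 119 and 64.0 CPM against 18.3 and 10.1 CPM, and Lrrtm1, a synaptic adhesion protein, at 223 and 143 CPM against 42.7 and 46.8 CPM. The guidance genes Sema3e and Slit2 had ratios of 2.48 and 1.83, and of 1.84 and 1.42. Lrp1b, Syt17, Shisa9, Necab2 and Ptprk lay between 1.56 and 2.49 in both libraries. Kcnip4, a partner of Kv4 potassium channels, had 2.18 and 1.91, but 0.74 against depth-paired cells at P1. Gdf10, a ligand of the TGF-beta family, likewise had 2.52 and 1.80 but 0.72.

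Zbtb20, a transcription factor with zinc fingers, was among the lower genes. It had 3 UMIs in 2 of 29 chosen cells at P1 and 11 UMIs in 9 of 103 at P5, or 8.90 and 16.4 CPM. Reference cells had 710 and 295 CPM of Zbtb20, depth-paired cells 232 and 159 CPM, and Pdyn cells 222 and 194 CPM. Myh8 cells had 204 and 63.6 CPM. At P5, 10 of 99 Myh8 cells had a UMI of Zbtb20, a share close to that of the chosen cells. Maf, which is needed for the survival and fate of SST+ interneurons, was at 166 and 103 CPM against 2038 and 703 CPM, ratios of -3.61 and -2.76 that were -2.69 and -2.69 to depth-paired cells. Maf was also higher in Myh8 cells (816 and 337 CPM) and in Pdyn cells (1404 and 880.5 CPM). Lmo4, a LIM-only protein, was at 47.5 and 31.2 CPM against 322 and 257 CPM, and the P1 UMIs came from 3 of 29 cells. Bcl11a was at 157 and 96.7 CPM against 719 and 483 CPM. Sox2 was at 17.8 and 47.6 CPM against 231 and 147 CPM, and Sox6, which acts in the maturation of these interneurons, at 134 and 116 CPM against 329 and 276 CPM, with -0.86 against depth-paired cells at P1. Nr2f2, known as COUP-TFII, had 47.5 and 47.6 CPM against 136 and 150 CPM, and 741 and 542 CPM in Myh8 cells.

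Among lower genes for membrane proteins, Thsd7a had 2 UMIs at P1 and 5 at P5, or 5.94 and 7.44 CPM against 215 and 261 CPM. Reln, a secreted matrix protein and marker of many MCs, was at 136.5 CPM (100.0 to 182 CPM) and 174 CPM (144 to 209 CPM) against 342 and 536 CPM, and at over 695 CPM in Myh8 cells and over 916 CPM in Pdyn cells at both stages. Gria3, an AMPA receptor subunit, had ratios of -1.82 and -1.83, Socs2 -2.56 and -2.44, Vcan -2.50 and -2.80, Nkain3 -4.98 and -2.80, and Tox3 -2.06 and -2.04. Nfib and Man1a had 2 and 1 UMIs at P1 and 0 at P5. Nfib was not lower than in Myh8 or Pdyn cells at P1 (ratio 2.79), and Pcdh8, with 0 UMIs at P1 and 8 at P5, was left out of that comparison by the filter. Dpp10 had ratios of -1.91 and -2.02, and Fam126a and Sox1, with 4 and 1 UMIs at P1, had -1.98 and -4.78.

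**Figure D3:**
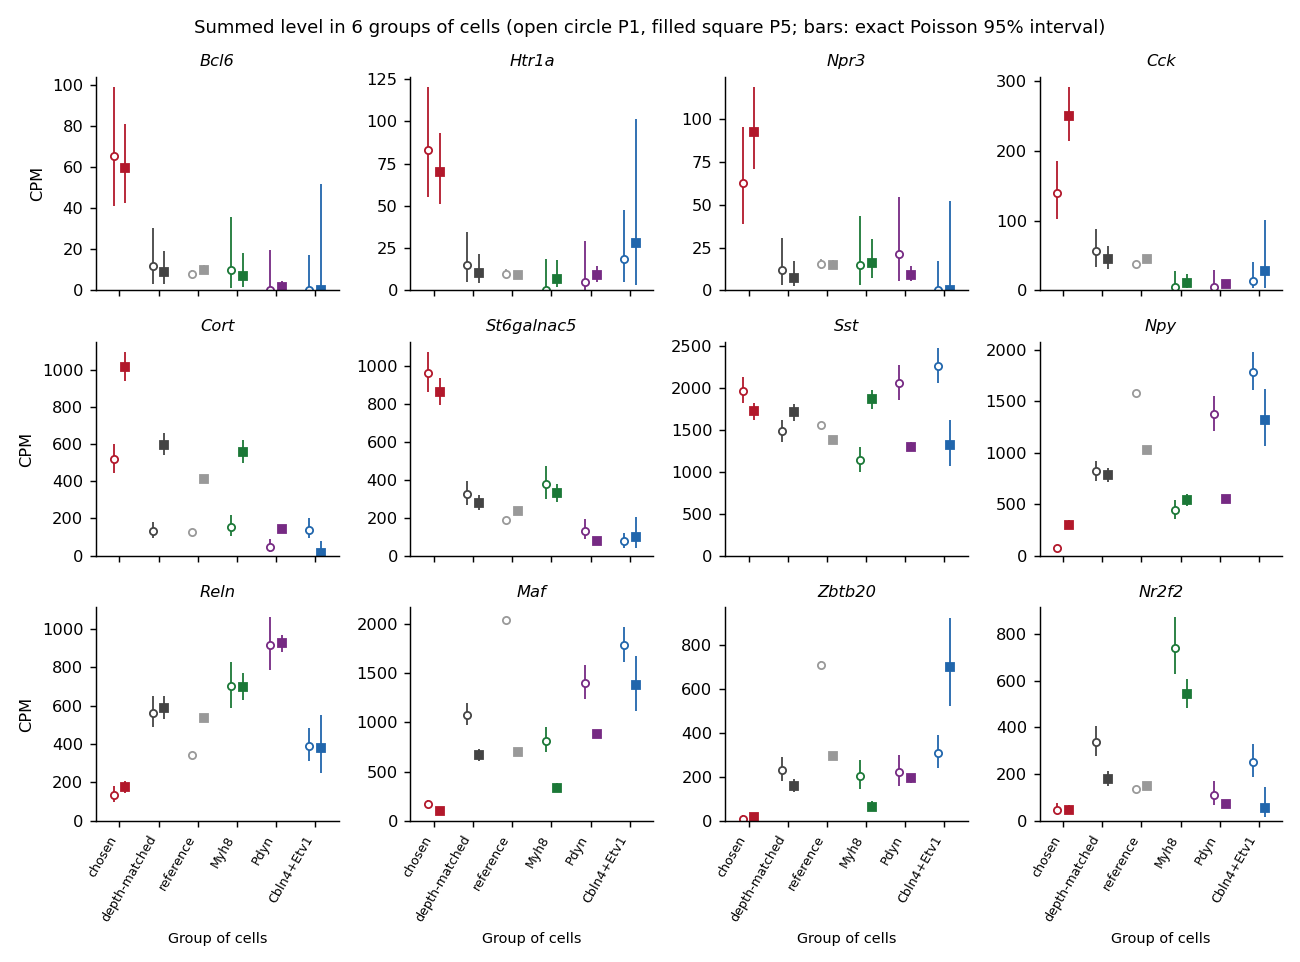
Summed level (CPM) of 12 genes at P1 (open circles) and P5 (filled squares) in the chosen cells, depth-paired reference cells, all reference cells, and reference cells with a UMI of Myh8, of Pdyn, or of both Cbln4 and Etv1; bars show exact Poisson 95% intervals. Among the groups shown, Bcl6, Htr1a, Npr3 and St6galnac5 were highest, and Npy, Reln, Maf and Zbtb20 lowest, in the chosen cells. Cells with only 1 of the 5 genes are not shown. They had 42.0 and 32.6 CPM of Htr1a, 37.0 and 31.4 CPM of Bcl6, and 44.45 and 56.9 CPM of Npr3. Their St6galnac5 was at 547 and 758 CPM. Some subgroups of them were above the chosen cells, such as Htr1a at 105.5 CPM (6 UMIs) in 10 P1 cells with Amelx alone.

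Several marker genes of MCs were not detected in the chosen cells. Chrna2, a marker of deep-layer MCs, Hpse and Cbln4, a synaptic organizer, had 0 UMIs in the chosen cells of all 3 libraries, which allows up to 8.90 CPM of each at P1 and 4.46 CPM at P5 if 3 UMIs are taken as the limit of a count of 0. Reference cells had 0.260 and 8.43 CPM of Chrna2 and 16.1 and 9.97 CPM of Cbln4, so that Chrna2 could not be read at P1. The study took a list of MC markers from clusters of these same cells, so its count is not independent evidence. The rule also kept Myh8 and Pdyn cells out of the chosen cells, while 43 P1 and 427 P5 reference cells had a UMI of either. A lower level of MC genes can thus be partly set by the rule. Against reference cells with 0 UMIs of both, mean ratios of 169 named genes stayed within their counting interval and 5 did not. That step removed only 43 of 1923 reference cells at P1, and the named genes are not all MC markers. It cannot show how much of the MC result the rule sets. Of the listed MC markers, Gpx3 and Myh8 are genes of the rule, with Gpx3 in 97 of 140 chosen cells and Myh8 required at 0. Over all genes past the filter, 0.924% were higher and 1.03% lower. Of 20 genes of that list outside the rule, 12 passed the filter: Htr1a was higher, and Nr2f2, Reln, Unc13c and Dpp10 were lower. The median ratio was -0.77 at P1 and -1.19 at P5. Htr1a passed only with the mean level, through its level in the chosen cells. Of 18 nMC markers listed in the same way, 12 passed: Tac1, Lrp1b and Kcnip4 were higher and Ptprd and Thsd7a lower, with medians of 0.71 and 0.76. Elfn1, a postsynaptic protein of SST+ interneurons, had ratios of -0.77 and -1.57, and Grin3a 0.22 and -1.04. Etv1 had 0 UMIs at P1 and 11 at P5. Calb2, Crh, Th and Pvalb had at most 9 UMIs in a library, the 8 Th UMIs at P5 coming from 4 cells.

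Longer lists of the study, made from genes that differ between types over development, were mixed. Their counts stand beside 0.924% higher and 1.03% lower over all genes. The MC list also holds Pdyn, which the rule required at 0. Of its 23 other genes, all past the filter, 0 were higher and 4 lower, with medians of -0.17 and -0.50. Of 28 nMC genes past the filter, 3 were higher (Tac1, Nudt4 and St6galnac5) and 3 lower (Nfib, Ptprd and Thsd7a), with medians of -0.40 and 0.07. These lists too were made on these cells. The nMC medians against depth-paired cells were 0.43 and 0.76, so the sign at P1 turned with the reference. Of the LRP list, 3 of 14 genes passed: Npy was lower, and Ptn had 0.56 and 0.61. Pou3f2 had 0 UMIs in the chosen cells of P1 and P5.

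Genes of the general inhibitory profile were read next. Of the 5 GABA genes, 0 were 2-fold higher or lower at both stages, a count that 5 genes would mostly give at the shares of 0.924% and 1.03% over all genes: Gad1 had ratios of 0.59 and 0.41, Gad2 0.21 and 1.08, and Slc32a1 0.34 and -0.06. Lhx6 had -0.27 and 0.13, and Satb1, a chromatin organizer of maturing SST+ interneurons, 0.88 and 0.37 but -0.08 and 0.15 against depth-paired cells. Of 19 transcription factors of the medial ganglionic eminence past the filter, 0 were higher and 3 were lower (Sox6, Maf and Nr2f2). Erbb4, the neuregulin receptor, had 0.40 and 1.44, and 1.86 and 2.45 against depth-paired cells. Mef2c had -1.09 and -0.59, and Npas1 1.48 and 0.55 but -0.04 and 0.09 against depth-paired cells.

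The families of the genes that chose the cells were also read. Irs1 and Irs2, the relatives of Irs4, had 1 and 14 UMIs at P1 and 6 and 16 at P5, with ratios of -1.44 and -0.43 for Irs1 and 0.68 and 0.06 for Irs2. Insr was at -0.06 and -0.69 and Igf1r at -0.83 and -0.74, and of 18 genes of insulin and IGF signalling past the filter only Igf1 was called, lower at -1.86 and -1.04. Gpx1 and Gpx4 had 0.45 and -0.32, and 0.62 and 0.22, and 0 of 15 antioxidant genes past the filter were called, which at the shares over all genes says little of so short a list. Hspb1 and Hspb8 were among 6 of 16 heat shock genes with 0 UMIs in the chosen cells of P1 and P5, and 0 of the 5 past the filter were called, too few to read.

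The counts in other lists stand against 0.924% higher and 1.03% lower over all genes. Of 28 receptor genes for GABA and glutamate past the filter, Gria3 and Grin2a were lower, and of 32 ion channel genes Cacna2d2 was higher and Kcnk2 lower. Of 11 calcium-binding genes Necab2, Ncald and Kcnip4 were higher, while Calb1 had ratios of -1.33 and -0.80. Of 22 guidance genes Slit2 and Sema3e were higher and Epha3 and Epha5 lower, and of 38 adhesion genes Lrrtm1 and Pcdh17 were higher and Pcdh8 and Pcdh19 lower. Of 12 genes of immature neurons Cd24a was lower, and 0 of 23 genes of synaptic maturation were called, with medians of 0.49 at P1 and 0.07 at P5, or 0.19 and 0.00 against depth-paired cells. Among 12 stress genes 0 were called.

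The 3 kinds of neighbour differed from the chosen cells in different genes. Myh8 cells (18 at P1 and 99 at P5) had St6galnac5 at 378 and 328 CPM and Cort at 154 and 556 CPM, nearer to the chosen cells than Pdyn cells (25 and 339), which had 132 and 76.8 CPM of St6galnac5 and 47.7 and 141 CPM of Cort. The 21 and 14 cells with both Cbln4 and Etv1 had 74.7 and 98.3 CPM of St6galnac5, and Maf at 1784 and 1376 CPM. Summed over the 53 higher genes, the log2 ratio to reference cells was 1.85 and 1.46 in the chosen cells, 0.75 and 0.37 in Myh8 cells, -0.17 and -0.61 in Pdyn cells, and -0.38 and -1.26 in Cbln4 and Etv1 cells. This sum describes the choice of genes for the chosen cells. For the other groups the order was the same at both stages.

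E16.5 was not used in finding the 53 and 59 genes, so its 8 cells were read with them. The summed level of the 53 genes ran from 2334 to 4560 CPM in the 8 cells, with a median of 3412, against a median of 1138 CPM in 3686 reference cells and 1381 CPM in 8 depth-paired cells. The 59 genes ran from 3612 to 7166 CPM, with a median of 4733, against 12187 and 8595 CPM. The log2 ratio of the sums was 1.19 (counting interval 0.97 to 1.40) and -1.30 (-1.48 to -1.13), or 0.77 and -0.88 against the depth-paired cells. All 8 cells lay above the reference median for the first set and below it for the second, and both groups overlapped. Gene by gene this was uneven: 17 of the 53 had 0 UMIs in the 8 cells, 23 were at least 2-fold higher and 17 at least 2-fold lower, and of the 59, 39 were at least 2-fold lower and 1 higher. Zbtb20 and Lmo4 had 0 UMIs against 187.5 and 271 CPM in reference cells. Ldb2 had 6 UMIs in 4 cells, while Htr1a, Sorcs3 and Npr3 had 0 and Bcl6 had 1. In these 8 cells 1 UMI is 18.2 CPM, and reference cells had 4.50 CPM of Htr1a and 3.21 CPM of Npr3. A count of 0 of these 2 genes thus says little. The 53 genes had 181 UMIs in all, so the gene-by-gene counts rest on few UMIs as well.

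**Figure D4:**
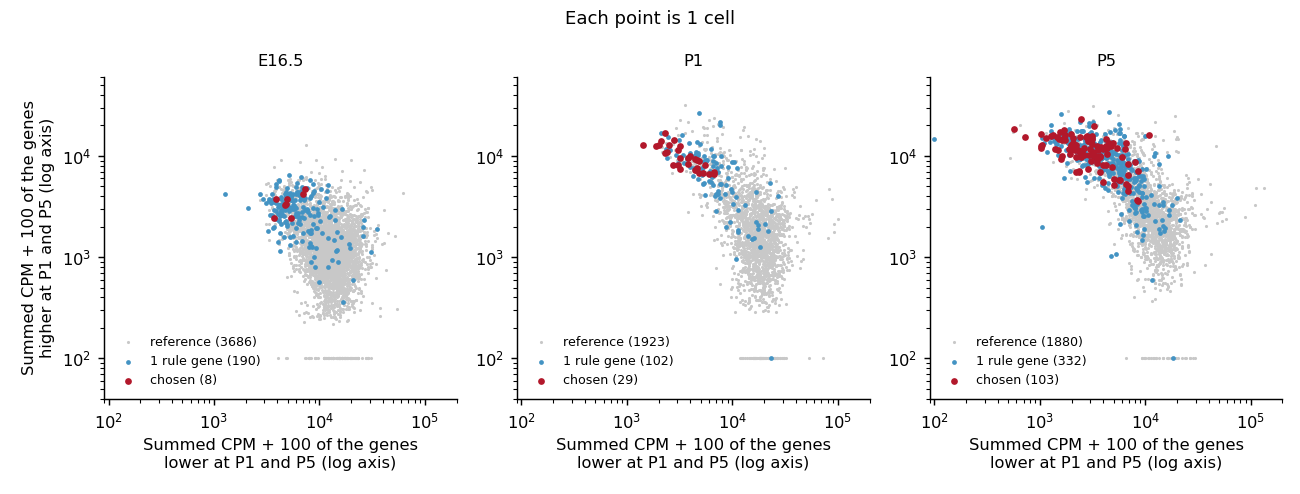
Each point is 1 cell, with the summed CPM + 100 of the 59 lower genes (x) and of the 53 higher genes (y) on log axes; chosen cells are red, cells with 1 of the 5 genes blue and reference cells grey. The 8 chosen cells of E16.5, which took no part in choosing the genes, lie above the reference median of 1138 CPM for the 53 genes and below the median of 12187 CPM for the 59.

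Cells with only 1 of the 5 genes were in neither group and took no part in choosing the 53 and 59 genes, whereas the sums of the chosen and reference cells are set apart by that choice. Their log2 ratio to reference cells, summed over the 53 genes, was 1.33 at P1 (102 cells) and 1.10 at P5 (332 cells), beside 1.85 and 1.44, used in the choice, for cells with 2 of the genes and 1.87 and 1.52 for cells with 3 or more. For the 59 genes it was -1.13 and -0.95, against -2.06 and -1.56, and -2.16 and -2.17. Median depth rose in the same order, from 8236.5 to 10114.5 to 14992 UMIs at P1 and from 4790.5 to 6176 to 6673 UMIs at P5, and its part was not tested. Reference cells depth-paired with the chosen cells themselves had 0.61 and 0.18 over the 53 genes, against all reference cells. Set against these depth-paired cells, cells with 1 gene had 0.72 and 0.92 over the 53 genes. Over the 59 genes they had -0.63 and -0.76. The groups overlapped: 5.29%, 4.11% and 32.1% of reference cells of the 3 libraries lay within the range of the chosen cells for both sums, against 51.6%, 41.2% and 83.4% of cells with 1 gene. At P1 and P5, Slc17a8 alone gave the lowest ratio over the 53 genes, 1.00 and 0.82, and Hspb3 alone the highest, 1.58 and 1.35. At E16.5 the order was another one, with 0.43 for Irs4 alone and 1.24 for Slc17a8 alone. At E16.5, 190 cells with 1 gene had ratios of 0.99 and -0.73, or 0.57 and -0.31 against the depth-paired cells. Another 8 cells at P1 and 16 at P5 held 2 or more of the genes but also Nos1, Pdyn or Myh8 and were left out. Those of P1 had ratios of 1.82 and -1.82, while those of P5 had 1.46 and 0.11, with 7439 CPM of Npy, whose 849 UMIs came from 9 of the 16.

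The chosen cells were also split by each gene of the rule. As the rule itself sets which other genes a cell without one must hold, and the highest of many genes are named, some excess was certain and the values are a description. Cells with a Gpx3 UMI had more Sst than those without: 606 UMIs in 20 cells against 56 in 9 at P1, and 1009 in 76 against 146 in 27 at P5, log2 ratios of 1.78 and 1.33. Gda, a guanine deaminase, and Elfn1 followed Gpx3 as well, with 1.92 and 1.53, and 1.28 and 1.82. Cells with Amelx had more of the cadherin gene Cdh2 (1.57 and 2.05) and of the adhesion gene Alcam (1.33 and 1.61), and Cdh2 was seen in 10 of 10 and 15 of 17 of them. Cells with Slc17a8 had more Htr1a, with 17 UMIs in 8 of 12 cells against 11 UMIs in 9 of 17 at P1, and 28 UMIs in 17 of 37 against 19 UMIs in 12 of 66 at P5, as well as Garnl3 and Rpn1 at ratios between 0.95 and 1.11. Cells with Irs4 had more Hap1 (2.15 and 0.90), Rab30 (1.31 and 1.32) and Rab27b (0.87 and 0.86). For Hspb3 the leading genes, Ndufaf4, Rab27b and Klhl23, lay between 0.71 and 1.01. These genes were taken from the 3 highest per split of 1569 to 2876, and the splits were not tested.

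With all 3 libraries required, 892 genes passed the filter on the pooled level and 0 (0%) were at least 2-fold higher, while 12 (1.35%) were at least 2-fold lower. At P1 and P5 alone, this filter left 5790 genes with 28 (0.484%) higher and 100 (1.73%) lower. The 10 lowest over the 3 stages were Zbtb20, Lmo4, Bcl11a, Npy, Sox2, Mpped2, Ttc28, Epha5, Smarca2 and Ptprd. Mpped2 had ratios of -1.51, -1.56 and -1.70, and Npy -6.39, -4.45 and -1.78. The 14 genes with the highest ratios in that direction were each under 2-fold in at least 1 stage. Of these, Khdrbs3, an RNA-binding protein, had 2.37, 1.47 and 0.78, Cdh2 0.75, 0.80 and 1.13, Nr2f1 0.81, 0.70 and 0.67, and Satb1 0.75, 0.88 and 0.37. Negr1, Enho, Ptn, Arnt2, Zwint, Cbfa2t3, Fxyd6, Elmo1, Kif21a and Erbb4 were likewise above 0 in all 3.

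Between stages, 339 of 986 genes (34.4%) were at least 2-fold higher at P5 than at E16.5 in the chosen cells and 72 (7.30%) lower, with a median ratio of 0.47 in chosen and 0.48 in reference cells. With ratios centred on the median, 220 were higher and 165 lower. The 8 E16.5 cells held 55078 UMIs, so genes of low level could not be read. Sst was at 345, 1965 and 1718 CPM over the 3 stages in chosen cells and at 2957, 1549 and 1375 CPM in reference cells. Npy was at 18.2, 71.2 and 299 CPM, against 1603, 1576 and 1028 CPM. Gad2, the GABA-synthesizing enzyme of nerve terminals, went the same way, from 7 UMIs at E16.5 to 827 CPM at P5. Tmem234, Inpp5f and Polr2m completed the 6 genes with the largest excess of the chosen cells' ratio over that of reference cells. At the other end, Atp2b1, a plasma membrane calcium pump, had ratios to reference cells of 0.86, -1.34 and -1.24. Camk2n1, Cttnbp2, Cdk5r1 and Khdrbs3 lay at that end too. Of the 8 E16.5 cells, 5 had a UMI of Sst, with 19 UMIs in all, and 6 had one of Lhx6.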

How the data were processed

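The authors aligned each library to GRCm38 with Cell Ranger (3.1.0 for E16.5 and P5, 3.0.2 for P1) and deposited UMI counts of 31053 genes per cell, without normalization. From these counts, cells were chosen by the rule given above, and UMIs were summed over each group of cells in a library and scaled to CPM. Mitochondrial, ribosomal-protein and Y-linked genes and the 8 genes of the rule were left out of ratios. Ratios are log2(CPM + 1), a gene being called at a log2 ratio of at least 1 or at most -1 in every library used. Genes were kept whose level over both groups would give 10 UMIs in each. This level was pooled in the planned analysis. For P1 and P5 the mean of both CPMs was used instead, a choice made after seeing the data, because the pooled level follows the far larger reference group. Intervals are exact (Poisson for UMIs, Clopper-Pearson for shares) at 95% and cover counting error only. No test between groups was run.

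The members and gene lists were chosen with earlier results of these data known. Named genes were the rule genes, the 14 highest and 10 lowest over 3 libraries, 6 more over P1 and P5, the 6 at each end of the stage difference, up to 4 per list, a fixed set of SST+ neuron genes and 3 per rule gene split. The leading genes at P1 and P5 under the mean filter were added after their values were seen. Some results that met this rule are not reported here. Gene positions are from GENCODE M21. Steps were tested on simulated data. Python 3.11.15, numpy 2.4.6, scipy 1.17.1, pandas 2.3.3 and matplotlib 3.10.9 were used.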

Additional observations from a re-analysis of the deposited data

Results flagged for a closer look

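The ratio of chosen to reference cells lay on opposite sides of 0 across stages for Gad2 and Grin2a, and the difference between stages was not tested. For Gad2 the log2 ratio was -1.27 at E16.5 (7 UMIs in the 8 chosen cells), 0.21 at P1 and 1.08 at P5. For Grin2a, an NMDA receptor subunit, it was 1.92 at E16.5 (4 UMIs), -1.39 at P1 and -1.10 at P5.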

How the results depend on the processing

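Over the 188 named genes, 2709 mean ratios were recomputed under other settings: 2176 stayed within their counting interval and 533 moved by more. They were means over P1 and P5, except that leaving out P1 or P5 put E16.5 in its place. Leaving out E16.5 repeats the main values, so its 174 ratios could not move. The mean ratio of a called gene did not change sign where the gene passed that setting's filter. Single stages could turn: against depth-paired cells 57 of the 59 lower genes kept their direction at both stages, and Nfib, below the filter there, did not against Myh8 or Pdyn cells. The rule chose 26 cells when 3 of the genes were asked for, 89 without Irs4, 65 without Gpx3, 86 with stricter cell quality and 33 after thinning to 2000 UMIs. At P1 and P5, where 53 genes were higher and 59 lower, there were 22 and 25 with 3 genes asked for, 27 and 28 without the 5% deepest cells, 0 and 3 after thinning, 104 and 159 with a filter of 3 UMIs, 18 and 27 with a filter of 30, 28 and 100 with the filter on the pooled level, and 81 higher against Myh8 or Pdyn cells. With all 3 libraries required, where 0 genes were higher and 12 lower, there were 5 lower without Hspb3, 0 lower after thinning, 1 and 3 against depth-paired cells, 4 and 32 with a filter of 3 UMIs, 3 lower with a filter of 30, 2 and 7 with the filter on the mean level, and 2 higher against Myh8 or Pdyn cells. Leaving out 1 library gave 0 to 28 higher and 12 to 100 lower genes, with 28 and 100 without E16.5. From E16.5 to P5, where 339 genes were higher and 72 lower in chosen cells, there were 214 and 42 without Irs4, 114 and 24 without Hspb3, 10 and 4 after thinning, 220 and 165 with centred ratios, 1089 and 438 with a filter of 3 UMIs, and 66 and 14 with a filter of 30. The cause was not tested. No E16.5 cell was chosen with 3 genes asked for, without Amelx or with stricter quality, so counts that need E16.5 could not be had there. The filter on the mean level and the Myh8 or Pdyn reference were chosen after seeing the data. No paired analysis was possible because each stage is 1 library and no test was run. The 8 cells of E16.5 limit every statement on that stage.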
